A study of Mus musculus with 6 samples.

Results

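The common gamma chain Il2rg and 9 other genes of cytokine signaling were followed in CD4+CD8+ double-positive (DP) thymocytes. The genes are the receptor chains Il7r, Il2rg, Il4ra and Il6st, the kinase Jak3, the transcription factor Stat5b, and the inhibitors Socs1, Socs2, Socs3 and Cish. They were taken by gene symbol, with no measured value used, and are 10 of the 22322 genes in the deposited table. All 10 were found.

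RNA-Seq compared sorted DP cells of control mice, labelled WT (Paxbp1fl/fl), with those of Paxbp1 cKO mice, which carry Paxbp1fl/fl and the Lckcre transgene. Both groups thus share the floxed alleles, and only the cKO mice carry Cre. Each group had 3 libraries from untreated thymus, and the methods give littermate controls, mixed sexes and an age of 4 to 7 weeks on a C57BL/6 background. The Lck promoter drives Cre in T-lineage cells from an early thymic stage, so that deletion precedes the DP stage. The labels do not say that the 3 libraries of a group came from separate mice, and p-values measure the spread between these libraries.

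Cytokines of the common gamma chain family, such as IL-7 and IL-4, bind receptors that pair a private chain with Il2rg. Jak1 and Jak3 on the joined chains phosphorylate STAT proteins, of which Stat5b answers to IL-7 and Stat6 to IL-4, while Il6st (gp130) serves the IL-6 family. The SOCS proteins and Cish are transcribed in response to STATs and in turn dampen the receptors. In the thymus, IL-7 receptor is high at the double-negative stage, shut down in DP cells and regained at positive selection, and Socs1 is the known brake on cytokine response in DP cells.

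Short stretches around the start of 4 of the genes are given because they carry the letters read by these factors. They come from the RefSeq promoter table on GRCm38.p6, which holds the 250 bases before and the 50 bases after each start and matched 9 of the 10 genes, with Socs2 unmatched. Capitals mark TTCNNNGAA, the letters bound by STAT5 dimers, which is its own reverse complement, or CCGGAA, a core read by ETS factors, searched on both strands. The first 3 are 30 bases each, and the fourth is the 250 bases before the start of Il2rg, the gene whose level changed past the threshold.
Cish, chr9:107296654-107296683, plus strand: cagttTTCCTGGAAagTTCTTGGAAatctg
Socs3, chr11:117969502-117969531, minus strand: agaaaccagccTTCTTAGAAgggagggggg
Il7r, chr15:9530000-9530029, minus strand: agttcaggagcTTCAGGGAAtaccaagatg
Il2rg, chrX:101268256-101268505, minus strand: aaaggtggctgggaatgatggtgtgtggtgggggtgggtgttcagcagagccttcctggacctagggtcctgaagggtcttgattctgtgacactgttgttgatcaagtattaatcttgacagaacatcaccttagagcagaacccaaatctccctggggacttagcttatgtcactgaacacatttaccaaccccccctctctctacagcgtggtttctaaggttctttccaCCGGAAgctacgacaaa

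TTCNNNGAA occurred 2 times in the Cish window, at offsets 1 and 12 from the start, and 1 time each in those of Socs3 and Il7r, at -154 and -142. The starts are those of the RefSeq table. In GENCODE M21 on GRCm38 these genes begin further upstream, so that all these matches lie inside the annotated genes. All 250 bases before the Cish start used here are annotated as Cish exon. Of all 32851 windows of 300 bases, 8.3% held TTCNNNGAA. CCGGAA occurred in the windows of Il2rg (at -17), Socs1, Il6st and Stat5b, and in 14.9% of all windows. A match gives letters only and is no evidence of a bound factor.

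Library totals ran from 18963775 to 26252248 counts. Levels are given in CPM, counts per TMM-scaled library total, on which a single count stood for 0.0388 to 0.052. In bulk RNA, fewer cells of a type and less RNA per cell cannot be told apart. Paxbp1 itself was at 40.1, 16.3 and 15.5 CPM in the controls and 38.8, 47.1 and 49.6 CPM in the cKO libraries (log2 fold change 0.92, SE 0.33, edgeR adjusted p = 0.0977). It was called higher by DESeq2 (0.92, adjusted p = 0.0213), by limma-voom (1.082, adjusted p = 0.0390) and by edgeR without control 1 (1.501, adjusted p = 0.0017). A count over the whole gene does not measure the floxed exon 8 and does not check the genotype, so directions below rest on the labels. The 9 DP markers (Cd4, Cd8a, Rag1 and others) were all detected, with a summed level of 8687 to 10177 CPM in controls and 6297 to 7499 CPM in cKO libraries. Of them Cd8b1, Rag1 and Cd3e were called lower, where 5.89% of all tested genes were.

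Markers of other cell types also moved with the groups. The 18 macrophage markers summed to 19.7 to 47.7 CPM in controls and 66.8 to 87.7 CPM in cKO libraries, with Mertk at 0 in all libraries. Of 13 tested, 5 were called higher (Adgre1, C1qb, C1qc, Cd68 and Vcam1), where 4.47% of all tested genes were. The 7 NK and innate T cell markers summed to 34.3 to 75.7 CPM in controls and 139 to 163 CPM in cKO libraries, nearly all of it Gzma, with Klrb1c at 0. The 7 genes of the double-negative and immature single-positive stages summed to 208 to 271 CPM in controls and 306 to 325 CPM in cKO libraries, and the 8 late DP and mature genes to 551 to 713 CPM and 536 to 1075 CPM. Sums of the dendritic cell list were 1.75 to 3.96 CPM against 4.24 to 6.30 CPM, with Clec9a at 0, and those of the B cell list 40.9 to 45.8 CPM against 25.8 to 28.9 CPM, nearly all of it Cd79b. The neutrophil, thymic epithelial and erythroid sums overlapped between the groups. Their part in the results below was not tested.

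Per length, Il2rg was by far the most abundant of the 10 genes. In FPKM, the deposited value scaled to transcript length and library size, its mean was 592 ± 74.8 (SD, n = 3) in controls, rank 77 of 15349 genes with a count. Stat5b (84.9 to 98.2 FPKM), Il4ra (76.2 to 104) and Socs1 (69.3 to 93.6) followed with ranges that overlapped, and then Il6st alone (28.8 to 36.4). Socs3 (4.10 to 9.58 FPKM) and Jak3 (5.09 to 5.81) formed a lower pair whose ranges overlapped. Cish (0.13 to 0.75), Socs2 (0 to 0.55) and Il7r (0.03 to 0.46) lay at the foot and overlapped as well. Control DP cells thus held transcripts of the shared chain and of Socs1 at high levels, and those of the private IL-7 chain near the detection limit. In cKO libraries the order was the same except that Jak3 stood above Socs3.

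**Figure D1:**
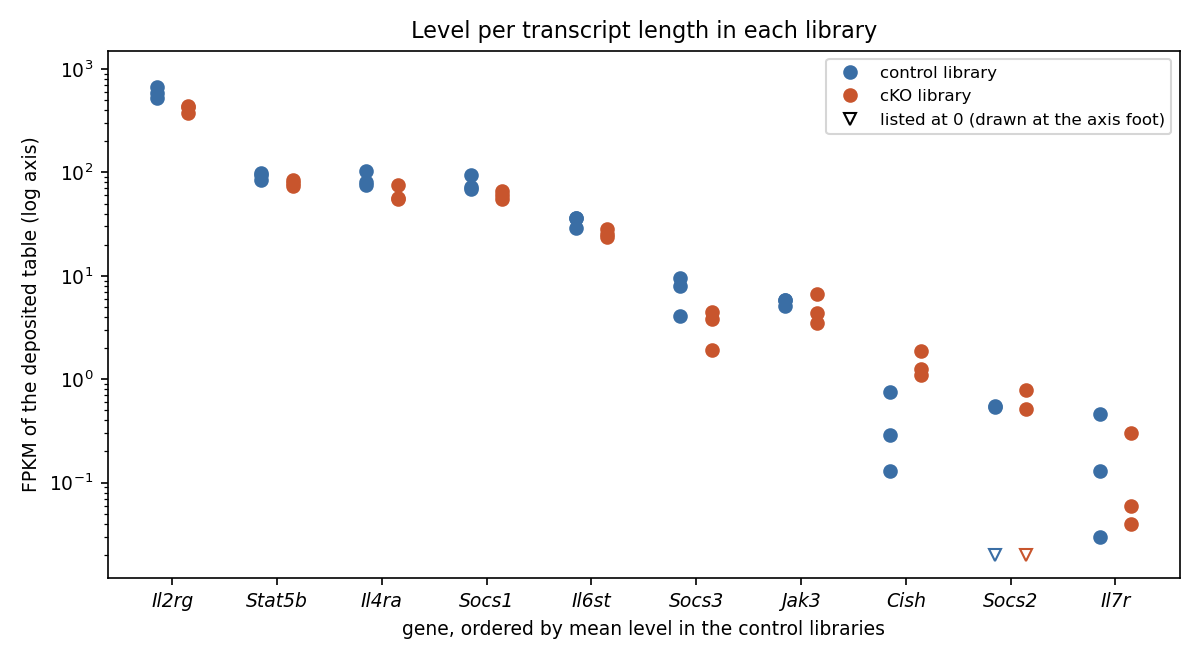
Deposited FPKM (log axis) of each gene in each of the 3 control (blue) and 3 cKO (orange) libraries, ordered by the control mean. Il2rg stands above 375 FPKM in every library, and Cish, Socs2 and Il7r stand below 2 FPKM, with Socs2 listed at 0 in replicate 2 of each group (open triangles).

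Of the 10 genes, 9 passed the filter on low counts and were tested, and Il7r did not pass. Only Il2rg was called (edgeR adjusted p below 0.05), and it was lower in cKO libraries, which is 1 of 9 where 10.4% of all 11488 tested genes were called and 5.89% were called lower. The edgeR count of 1 is close to what this background share gives for a list of this length. No gene was called higher by edgeR, where 4.47% of all genes were. At an unadjusted p below 0.05, 6 of the 9 were lower, against 14.6% of all tested genes, and 1 was higher, against 13.3%. DESeq2, which gave all 10 genes an adjusted p, called 4 lower (8.44% of all genes) and 1 higher (8.22%). With limma-voom 1 of the 9 was called lower (6.24% of all genes) and 1 higher (5.22%). None of the 9 passed both the adjusted p and an absolute log2 fold change above 1, the threshold of the methods, which 2.76% of all genes passed in edgeR. With DESeq2 Socs3 and Cish passed both, and with limma-voom Cish did. The share of all genes past both was not taken with these tools, so these counts have no background beside them.

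The 3 control values and the 3 cKO values did not overlap in 6 of the 9 tested genes, against 33% of all tested genes. Il2rg, Il4ra, Il6st, Stat5b and Socs1 were apart with cKO lower (17.3% of all genes), and Cish was apart with cKO higher (15.7%). The fitted fold change was negative in 7 of 9, with a median of -0.39 on the log2 scale. The median over all tested genes was -0.0017, and 50.2% of them were negative. The 9 DP markers were all negative too, with a median of -0.37. A negative median was thus not particular to the cytokine genes, and whether they fell together with the DP markers was not tested. With 3 libraries a group, an exact two-sided permutation test of a single gene cannot give a p below 0.1.

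**Figure D2:**
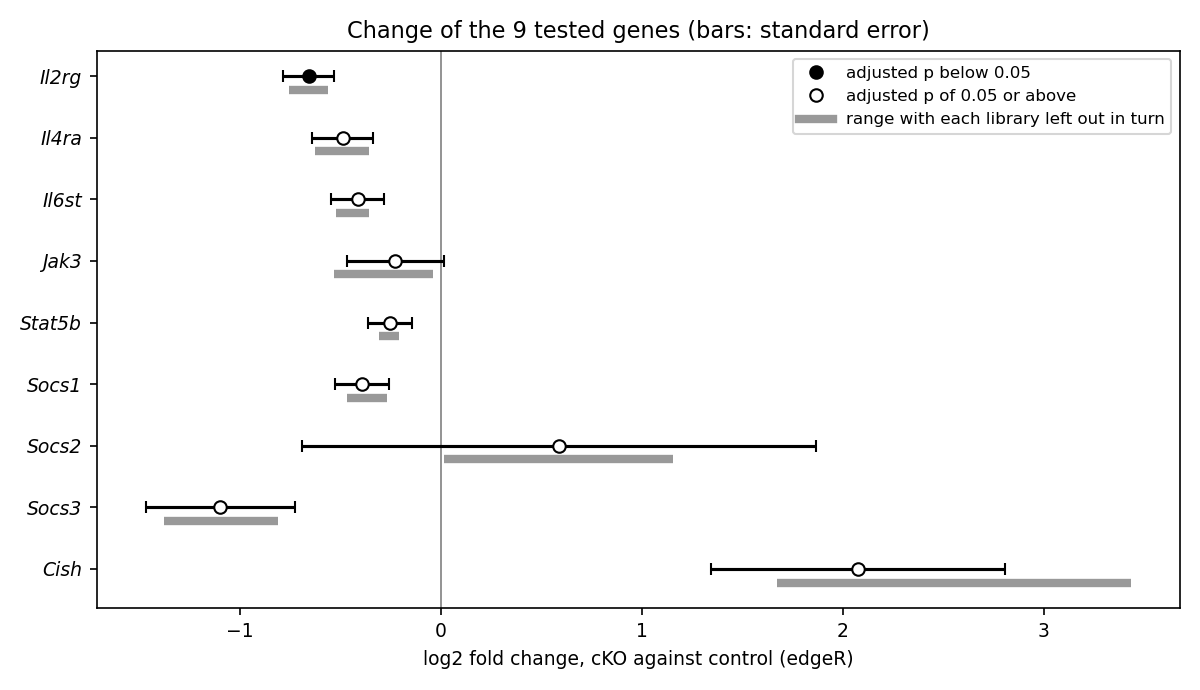
Log2 fold change of cKO against control for the 9 tested genes (points, with the standard error as bars) and the range of that value when each library was left out in turn (grey). Il2rg, at -0.66, is the only filled point (adjusted p below 0.05), and Cish, at 2.08, has the widest grey range.

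Il2rg (ENSMUSG00000031304) encodes the chain shared by the receptors for IL-2, IL-4, IL-7, IL-9, IL-15 and IL-21, and lies on the minus strand of chromosome X from 101264378 to 101268255 (GENCODE M21 on GRCm38). It was at 775, 1014 and 894 CPM in controls 1 to 3 and at 586, 599 and 515 CPM in cKO 1 to 3. Every cKO library was below every control library, and the lowest control lay well above the highest cKO library. The mean fell from 894 ± 119 to 567 ± 45.2 CPM (SD, n = 3 each), a 1.58-fold difference (log2 fold change -0.66, SE 0.13, edgeR adjusted p = 0.0124). The call was lost without control 2 (-0.56, adjusted p = 0.0553) and without cKO 3 (-0.60, adjusted p = 0.0797) and was kept without each of the other 4 libraries. No source used here gives the sex of each library. The 356 tested X-linked genes had a median log2 fold change of -0.0066. That median was not tested as a measure of the sex mix and does not settle it. Gm20489, annotated over Il2rg on the same strand, had 0 counts in all 6 libraries.

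In the deposited FPKM, Il2rg was at 520.3, 670 and 585 in controls and at 430, 437 and 375 in cKO libraries, with a ratio of the means of 1.43. The groups were apart on that scale too. For the other genes except Cish and Socs2, the ratios of the means in CPM and in FPKM were close to each other, such as 1.40 and 1.39 for Il4ra. Cish had ratios of 0.239 in CPM and 0.276 in FPKM, and Socs2 had 0.661 and 0.839. FPKM per CPM differed between libraries most for Cish, from 0.357 to 0.83. For Il2rg it ran from 0.655 to 0.733 and was higher in every cKO library than in any control. The size of the Il2rg difference thus depends on the measure. The reason was not tested.

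Il4ra (ENSMUSG00000030748) encodes the private chain of the IL-4 receptor, which also serves IL-13, and lies on chromosome 7, plus strand, from 125552120 to 125579474. Controls had 427, 318 and 341 CPM, and cKO libraries had 305, 236 and 233 CPM. The groups were apart by a narrow margin, between control 2 and cKO 1. Means were 362 ± 57.6 and 258 ± 40.7 CPM, and the log2 fold change of -0.49 (SE 0.15) did not pass the threshold (edgeR adjusted p = 0.0638). DESeq2 called it (adjusted p = 0.0212), as did edgeR without the filter on low counts (adjusted p = 0.0407). Gm44876 lies antisense to Il4ra, and no source used here says whether reads were counted by strand.

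Il6st (ENSMUSG00000021756, chromosome 13, plus strand, 112464070 to 112510086) encodes gp130, the signal chain for IL-6, IL-11, LIF and oncostatin M. It was at 200.3, 198 and 157 CPM in controls and 154, 134 and 129 CPM in cKO libraries. Control 3 lay just above cKO 1, and the other controls stood clear of all cKO libraries. The difference from 185 ± 24.2 to 139 ± 13.4 CPM (log2 fold change -0.41, SE 0.13) did not pass edgeR's test (adjusted p = 0.0734) and passed that of DESeq2 (adjusted p = 0.0415).

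Il7r (ENSMUSG00000003882, chromosome 15, minus strand, 9505788 to 9530176) encodes the private chain of the IL-7 receptor. Its counts were 9, 32 and 3 in controls and 23, 4 and 3 in cKO libraries, or 0.467, 1.64 and 0.116 CPM against 1.05, 0.208 and 0.138 CPM. Control 3 and cKO 3 held 3 counts each, and the groups overlapped. Means of 0.742 ± 0.800 and 0.465 ± 0.507 CPM did not differ beyond the spread of the libraries (exact two-sided permutation p = 0.7), and a change was not detectable at this depth. The highest values of each group, in control 2 and cKO 1, fell in the libraries where Ccr7, a gene of mature thymocytes, was highest too, at 28.3 and 29.0 CPM against 3.69 to 16.9 CPM in the other libraries.

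**Figure D3:**
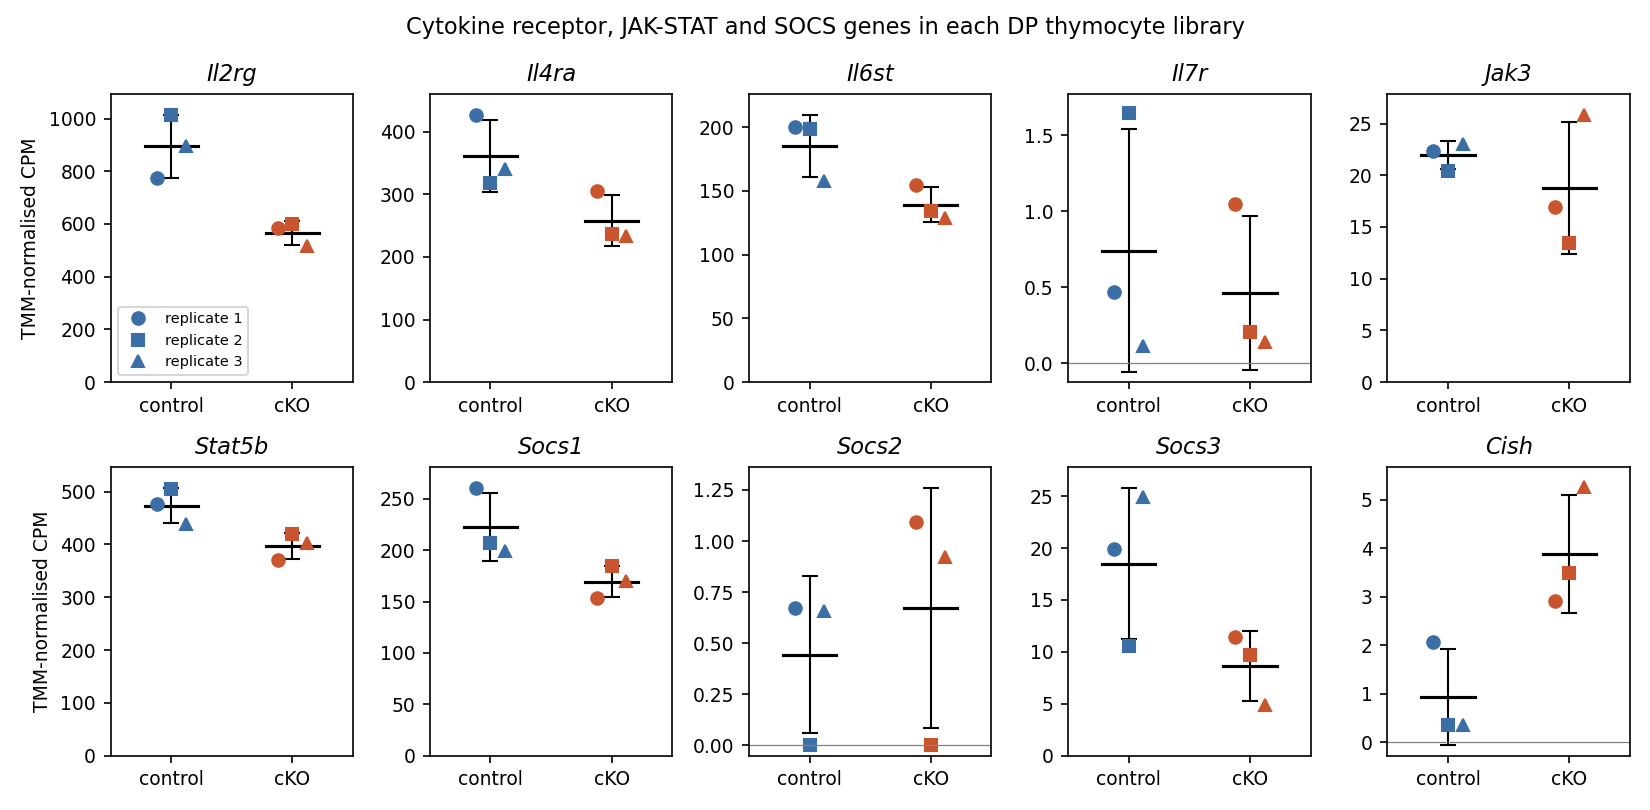
TMM-normalised CPM (linear axes, each gene on its own scale) of the 10 genes in the 3 control (blue) and 3 cKO (orange) libraries, with the mean (line) and SD (bars), and the replicate number as the marker shape. Il2rg, Il4ra, Il6st, Stat5b and Socs1 lie lower in every cKO library than in any control, Cish lies higher, and the values of Il7r, Jak3, Socs2 and Socs3 overlap.

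Jak3 (ENSMUSG00000031805, chromosome 8, plus strand, 71676296 to 71690575) is the kinase that binds Il2rg. It was at 22.3, 20.4 and 23.0 CPM in controls and at 17.0, 13.4 and 25.8 CPM in cKO libraries. The cKO values spread around the controls, with cKO 3 the highest and cKO 2 the lowest of all 6 libraries. Means were 21.9 ± 1.36 and 18.7 ± 6.39 CPM, with a coefficient of variation of 6.20% in controls and 34.1% in cKO libraries. The log2 fold change of -0.22 (SE 0.24) did not pass (edgeR adjusted p = 0.591) and ran from -0.53 to -0.04 over the alternatives. Insl3, which overlaps Jak3 on the same strand, had 0 counts.

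Stat5b (ENSMUSG00000020919, chromosome 11, minus strand, 100780731 to 100850724) is activated by IL-2, IL-7 and other cytokines. Its levels were 477, 504 and 439 CPM in controls and 370, 419 and 402 CPM in cKO libraries. The groups were apart, with control 3 and cKO 2 the nearest to each other. From 473 ± 32.8 to 397 ± 24.8 CPM, the log2 fold change was -0.25 (SE 0.11, edgeR adjusted p = 0.161), and it stayed between -0.31 and -0.21 over all 13 alternatives, none of which called it.

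The ratio of Il2rg to Stat5b within a library, chosen after the values were seen, does not depend on library scaling. It was 1.63, 2.01 and 2.04 in controls and 1.58, 1.43 and 1.28 in cKO libraries, computed from CPM. All cKO values were lower, though cKO 1 and control 1 were close, and the exact two-sided permutation p of 0.1 is the smallest that 3 against 3 libraries allow.

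Among the inhibitors, no gene was called by edgeR, and the 4 genes did not share a direction. Socs1 (ENSMUSG00000038037, chromosome 16, minus strand, 10782240 to 10785536) binds JAKs directly through its kinase inhibitory region. It was at 260.3, 208 and 199.5 CPM in controls and 154, 184 and 170 CPM in cKO libraries. The highest cKO library lay just under the lowest control. Means were 222 ± 33.0 and 169 ± 15.2 CPM (log2 fold change -0.39, SE 0.13, edgeR adjusted p = 0.0877), and none of 13 alternatives called it, with adjusted p from 0.0552 to 0.248. The ratio of Socs1 to Il2rg, also chosen after the values were seen, overlapped between the groups, from 0.205 to 0.336 in controls and from 0.263 to 0.330 in cKO libraries.

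Socs3 (ENSMUSG00000053113, chromosome 11, minus strand, 117966079 to 117970047) docks on Il6st and blocks its kinases. It was at 19.9, 10.6 and 24.9 CPM in controls and 11.4, 9.68 and 4.84 CPM in cKO libraries. Control 2 lay below cKO 1, so that the groups overlapped, and cKO 3 was the lowest of all. Means were 18.5 ± 7.27 and 8.64 ± 3.40 CPM, and the log2 fold change of -1.10 (SE 0.37) did not pass edgeR's test (adjusted p = 0.0843). DESeq2 (-1.09, adjusted p = 0.0260) and edgeR without the filter (-1.11, adjusted p = 0.0470) called it.

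Cish (ENSMUSG00000032578, chromosome 9, plus strand, 107296026 to 107302784), whose window holds the pair of TTCNNNGAA matches shown above, is a STAT5 target that binds phosphorylated receptor chains. Its counts were 40, 7 and 9 in controls and 64, 67 and 114 in cKO libraries. In CPM these are 2.07, 0.360 and 0.349 against 2.92, 3.49 and 5.26, so that every cKO library was above every control, with control 1 much nearer to the cKO libraries than controls 2 and 3. Means were 0.928 ± 0.993 and 3.89 ± 1.22 CPM, and the log2 fold change of 2.08 (SE 0.73, 4.22-fold) did not pass edgeR's test (adjusted p = 0.0960). It was called by DESeq2 (2.09, adjusted p = 0.0270), by limma-voom (2.57, adjusted p = 0.0419) and by edgeR without control 1 (3.43, adjusted p = 0.00901). Gm17040 and Gm17041 are annotated on the other strand at this gene.

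Socs2 (ENSMUSG00000020027, chromosome 10, minus strand, 95385362 to 95417180), a brake on growth hormone signaling, had 13, 0 and 17 counts in controls and 24, 0 and 20 in cKO libraries. Replicate 2 of each group had 0 counts, which allows up to 0.154 CPM in control 2 and 0.156 CPM in cKO 2. The other 4 libraries stood between 0.660 and 1.10 CPM. A difference was not detectable at this depth (log2 fold change 0.59, SE 1.28, edgeR adjusted p = 0.811).

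The rest of the pathway was taken from 8 lists of 91 genes, of which 65 were tested. Of these, 5 were called higher and 4 lower, and 29 had a positive and 36 a negative fold change, with a median of -0.079. The background shares are 4.47% called higher and 5.89% called lower. The calls therefore went both ways and were spread over 4 of the lists.

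Ligands of the family mostly fell below the filter in these sorted cells. Of 19 listed, 3 were tested and none was called, at an unadjusted p below 0.05 or by DESeq2 or limma-voom either. Il4, Il9, Il13, Il21 and Il23a were at 0 in all 6 libraries, and Il7 had 1 count in all, in cKO 3.

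Of the 18 tested receptor chains other than the members, 2 were called higher and 1 lower, with a median log2 fold change of 0.19. Il2ra (CD25), the high-affinity chain that pairs with Il2rg for IL-2 and marks double-negative cells, was at 4.67, 7.76 and 6.36 CPM in controls and 16.6, 16.6 and 11.3 CPM in cKO libraries. It rose from 6.26 ± 1.55 to 14.8 ± 3.06 CPM (log2 fold change 1.24, SE 0.28, edgeR adjusted p = 0.0212). That call was lost without control 3 and without each of the cKO libraries. Il21r, another partner of Il2rg, fell from 151 ± 45.9 to 90.5 ± 8.94 CPM (-0.74, SE 0.19, adjusted p = 0.0384), with 122, 204 and 127 CPM in controls and 99.9, 89.5 and 82.1 CPM in cKO libraries. Its call was lost without control 2 and without each of the cKO libraries. Ifngr2, the signal chain for interferon gamma, rose from 67.8 ± 2.53 to 113 ± 15.9 CPM (0.74, SE 0.14, adjusted p = 0.0101) and lost its call only without cKO 3. Il2rg and its private partners thus did not move one way, since Il2ra was higher and Il21r lower.

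None of the 3 other Janus kinases was called by edgeR, DESeq2 or limma-voom, and 1 was lower at an unadjusted p below 0.05. That gene was Jak1, the partner of Jak3, at 800 ± 19.7 CPM in controls and 683 ± 35.2 CPM in cKO libraries (log2 fold change -0.23, edgeR adjusted p = 0.171). All 3 had a negative fold change, with a median of -0.20. Among the 6 other STAT factors, 5 had a negative fold change, with a median of -0.18, and none was called by edgeR or limma-voom, while 2 were lower at an unadjusted p below 0.05 and DESeq2 called 1. Those 2 were Stat6, at 257 ± 17.9 and 194 ± 27.9 CPM (-0.41, edgeR adjusted p = 0.0723), and Stat3, at 237 ± 15.3 and 188 ± 13.6 CPM (-0.33, edgeR adjusted p = 0.0837).

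Socs4 to Socs7, the SOCS proteins less tied to cytokine receptors, gave no call by any of the 3 tools and none at an unadjusted p below 0.05, with a median log2 fold change of 0.12. The most abundant were Socs4, at 65.5 ± 4.28 CPM in controls and 67.5 ± 9.39 CPM in cKO libraries, and Socs6, at 68.2 ± 13.4 and 58.8 ± 4.30 CPM. Of the 13 other inhibitors, Ptpn2, a phosphatase of JAKs and STATs, rose from 71.3 ± 9.89 to 115 ± 12.8 CPM (0.69, SE 0.14, edgeR adjusted p = 0.0173). Ptprc (CD45), the phosphatase of Src-family kinases and JAKs, fell from 2418 ± 178 to 1774 ± 170.3 CPM (-0.45, SE 0.11, adjusted p = 0.0321). Both calls were lost without control 2, cKO 1 or cKO 3. Of the 6 proteins that join the SOCS box to ubiquitin ligases, Cul2 rose from 70.2 ± 7.33 to 106 ± 5.30 CPM (0.59, SE 0.13, adjusted p = 0.0178), a call lost without control 2, control 3, cKO 1 or cKO 3.

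Among 13 known targets of STAT5 and STAT6, the strongest call was Bcl6, a repressor held down by STAT5 in other T cells. It was at 128, 181 and 152 CPM in controls and 74.5, 81.2 and 51.6 CPM in cKO libraries, and fell from 154 ± 26.8 to 69.1 ± 15.5 CPM (log2 fold change -1.15, SE 0.19, edgeR adjusted p = 0.00786). The call was kept without any single library. Gfi1, a repressor induced through IL-7 signaling, fell from 146 ± 5.49 to 104 ± 11.98 CPM (-0.49, SE 0.12, adjusted p = 0.0342), a call kept only without control 1. Pim1, a survival kinase induced by STAT5, rose from 21.97 ± 5.85 to 52.7 ± 22.2 CPM (1.26, SE 0.32, adjusted p = 0.0331), a call lost without control 2, control 3, cKO 1 or cKO 3. Of the other classical targets, Bcl2l1, which encodes the survival factor Bcl-xL of DP cells, was at 753 ± 148 and 560.4 ± 86.5 CPM (-0.43, adjusted p = 0.112). The list as a whole had a median of -0.25, with 5 positive and 8 negative fold changes.

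**Figure D4:**
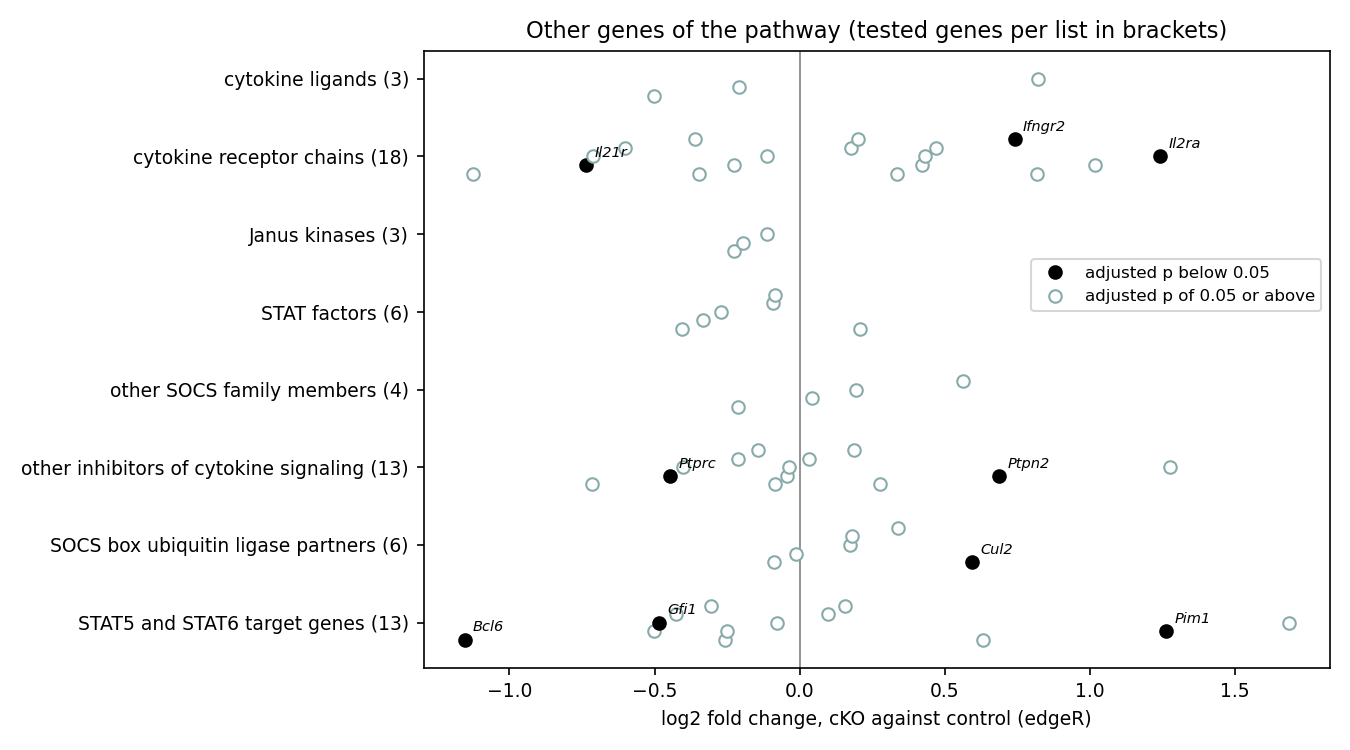
Log2 fold change of cKO against control for each tested gene of the 8 pathway lists, with the number tested in brackets, and filled points for genes with an adjusted p below 0.05. The 9 filled points lie on both sides of 0, from Bcl6 at -1.15 to Pim1 at 1.26.

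The profile of Il2rg over the 6 libraries was compared with that of 9195 genes with a mean of at least 5 CPM, by the root mean square difference of log2 CPM, each gene centred on its own mean. The nearest were Tmsb4x (thymosin beta 4, X-linked) at 0.0159, Cd27, a costimulatory receptor, at 0.0284, Tmbim4 at 0.0383, Atraid at 0.0443 and Bloc1s1 at 0.0449. Tmsb4x (log2 fold change -0.67, edgeR adjusted p = 0.0124) and Cd27 (-0.60, adjusted p = 0.0166) were called lower in cKO libraries. Tmbim4 (-0.62, edgeR adjusted p = 0.0358), Atraid (-0.63, adjusted p = 0.0352) and Bloc1s1 (-0.60, adjusted p = 0.0397) were called lower too. All 5 were picked for a profile like that of Il2rg, so these calls follow from the choice and add no separate result. For Socs3, the inhibitor with the smallest unadjusted p, the nearest were Map3k20 at 0.283, Harbi1 at 0.328, Septin4 at 0.341, Wdr41 at 0.354 and Haghl at 0.356. Map3k20, Septin4 and Haghl were called lower by edgeR, and Harbi1 and Wdr41 were not called. No gene came as near to Socs3 as the 5 did to Il2rg. These distances are descriptions over 6 libraries.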

How the data were processed

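RNA of sorted DP thymocytes was sequenced in 3 control and 3 cKO libraries, grouped by the sample titles. The authors deposited 1 table, whose count columns hold unnormalised reads per gene and whose FPKM columns hold the authors' values per length and library size. Its columns of group means, ratios, p-values and FDR come from the authors' own comparison and were not used. The submitters' processing notes name fastp 0.18.0, Bowtie2 2.2.8, HISAT2, StringTie 1.3.1 and RSEM, and the methods name DESeq2. No source used here names the genome build or the annotation behind the counts.

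Counts were tested in R 4.3.3 with edgeR 4.0.16 (quasi-likelihood, TMM, genotype as the only term) over all genes kept by filterByExpr (minimum count 10, minimum total 15), which left 11488 of 15349 genes with a count. P-values were adjusted by Benjamini-Hochberg over all tested genes, and a gene was called below 0.05. SE is the log2 fold change over the root of the F statistic. CPM uses TMM-scaled totals. Replicates were no duplicates (chi-square per degree of freedom 19.1 to 64.9). The upper limits given for Socs2 cover counting error only, while SE and SD include the spread between libraries. The test was checked on simulated counts, where it recovered 152 of 200 changed genes and made 13 false calls. It recovered 68% of those with an absolute log2 fold change of 1, and smaller changes were not simulated.

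The alternatives were DESeq2 1.42.0, limma-voom (limma 3.58.1), RLE factors, total counts, no filter, a mean of at least 5 CPM, the replicate number as a block, and leaving out each library. Named are the 10 genes, Paxbp1, called genes of the lists with up to 4 of the most abundant others per list, and the 5 profiles nearest to Il2rg and to Socs3, the receptor or signal gene and the inhibitor with the smallest unadjusted p. Ligands at or near 0, the marker genes and the ratios were chosen after their values were seen. The genes and all lists were chosen with earlier results of these data known.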

Additional observations from a re-analysis of the deposited data

How the results depend on the processing

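Il2rg was called in 11 of 13 alternatives, and no tested gene among the 10 changed its sign under another scaling or tool. The number called lower was 1 and became 3 without the filter on low counts (Il2rg, Il4ra and Socs3), 2 with the replicate block (Il2rg and Il4ra) and 4 with DESeq2 (Il2rg, Il4ra, Il6st and Socs3). The number called higher was 0 and became 1 with DESeq2 and with limma-voom (Cish). With 1 library left out, these numbers ran from 0 to 1 each. The share of all tested genes called in either direction was 10.4% in the main setting, 8.85% without the filter and 10.8% with the block. It was 16.7% with DESeq2, 11.5% with limma-voom and 1.02% to 17.1% with 1 library left out. Over all genes, 514 were called higher and 677 lower, DESeq2 called 943 higher and 969 lower, and leaving out 1 library gave 42 to 1000 higher and 78 to 1030 lower. Of the pathway lists, 5 genes were called higher, 8 with the replicate block, with DESeq2 and with limma-voom, and 0 to 8 with 1 library left out, and 4 were called lower, 1 to 6 with 1 library left out. Samples with the same number did not deviate together (correlations 0.0451, 0.0377 and -0.030), so that the numbers were not taken as pairs, and not every sample correlated best with its own number. Il7r, which the filter left out, could be fitted in 7 alternatives and was called in none, with a positive log2 fold change without control 2 (0.69) and negative ones otherwise (-1.17 to -0.22). Low counts limit Il7r, Socs2 and Cish, where 1 library decides the value.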

Other observations

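Leaving out the 10 genes described above, the deposited table assigns 173 genes to the KEGG Jak-STAT pathway, of which 79 were tested. Of these, 5 were called higher (Ifngr2, Ptpn2, Pim1, Il2ra and Pik3cd) and 2 lower (Il21r and Stam). Over all tested genes, 4.47% were called higher and 5.89% lower. The list had 39 positive and 40 negative fold changes and a median log2 fold change of -0.013. Stam, an adaptor that sorts ubiquitinated receptors, fell from 72.5 ± 2.75 to 51.1 ± 3.33 CPM (-0.51, SE 0.12, edgeR adjusted p = 0.0318). Pik3cd, the leukocyte PI3 kinase subunit, rose from 50.2 ± 3.995 to 69.1 ± 2.59 CPM (0.46, SE 0.13, edgeR adjusted p = 0.0476).

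The 7 genes of the double-negative and immature single-positive stages did not move one way. Of them, 3 were called higher (Il2ra, Hes1 and Dtx1) and none lower, with fold changes positive in 4 and negative in 3. The shares of all tested genes were 4.47% called higher and 5.89% called lower. Hes1, a Notch target of early thymocytes, rose from 7.83 ± 2.14 to 54.1 ± 19.8 CPM (log2 fold change 2.79, SE 0.31, edgeR adjusted p = 0.00349), and kept its call without any single library. Not called were Kit (log2 fold change -0.93), Ptcra (-0.31), Cd44 (-0.0091) and Notch1 (0.25), and none of the 7 was lower at an unadjusted p below 0.05 or by DESeq2 or limma-voom. Klf2 is regained with Il7r at maturation. It was at 33.2, 70.6 and 60.2 CPM in controls and 62.8, 22.8 and 21.6 CPM in cKO libraries. In each group it was highest where Il7r was, in control 2 and cKO 1. In control 3, however, Klf2 was close to its cKO 1 value, while Il7r had only 3 counts there.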
